A study of Mus musculus with 9 samples.

Results

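The mRNAs of 9 nuclear receptors that govern liver metabolism were followed in mouse primary hepatocytes under endoplasmic reticulum (ER) stress. The receptors were chosen by name: Nr1h4 (FXR), Nr0b2 (SHP), Nr1i2 (PXR), Nr1i3 (CAR), Ppara (PPARα), Nr1h3 (LXRα), Rxra (RXRα), Thrb (TRβ) and Nr3c1 (GR). All 9 were found once each among the 54532 genes of the deposited table. The test required at least 1 FPKM (fragments for each kilobase of a gene, divided by the size of the library) in at least 3 libraries. Of the 9 receptors, 7 met that requirement, among 11858 genes in all, and these 7 were at or above 1 FPKM in every one of the 9 libraries. Nr0b2 and Nr1i3 fell below it and are described by their fragment counts.

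Cells came from C57BL/6 mice carrying floxed COX-2 alleles, and 3 libraries were made for each of 3 groups. WT DMSO and WT Tu were hepatocytes of COX-2fl/fl/Alb-Cre- littermates, so "WT" cells were floxed without Cre. CKO Tu were hepatocytes of COX-2fl/fl/Alb-Cre+ mice, in which the albumin promoter drives Cre in hepatocytes. Each culture had 2 h in 1% FBS before 24 h with the vehicle DMSO or with 6 μmol/L tunicamycin (Tu), a blocker of N-glycosylation that fills the ER with misfolded protein. No vehicle-treated CKO group was analysed here. The labels give no age in weeks and do not tie libraries to single mice, so each p-value reflects only how these cultures or preparations varied, which may be technical.

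Nuclear receptors are transcription factors switched by small lipophilic ligands. FXR senses bile acids and induces SHP, a receptor without a DNA-binding domain that represses bile acid synthesis; PXR and CAR sense drugs and other foreign compounds and induce the enzymes that clear them. PPARα senses fatty acids and drives their oxidation, and LXRα senses oxysterols and drives cholesterol export and lipid synthesis. These receptors, other than SHP, and TRβ bind DNA as heterodimers with RXRα, whereas GR waits in the cytoplasm in a chaperone complex and binds DNA mostly as a homodimer once it holds a glucocorticoid.

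Each library held 14897358 to 16001484 fragments assigned to genes. WT Tu replicate 1 stood apart from its group, at -36.6 on the second principal component against -19.6 in both others, and had the highest mitochondrial share, 6.87% (range over 9 libraries 4.39% to 6.87%). The labels call all mice male, but Xist, a marker of female cells, had 20659 to 33657 fragments in each of the 6 WT libraries and at most 3 in the CKO Tu libraries. Uty, Kdm5d, Eif2s3y and Ddx3y, which lie on the Y chromosome, together had 0 fragments in the WT libraries and 3486 to 3633 in CKO Tu. Genotype and this sex difference cannot be told apart in any comparison with CKO Tu. Ptgs2, the gene of COX-2, gave 0, 13 and 8 fragments for WT DMSO, 8, 5 and 5 for WT Tu, and 1, 1 and 2 for CKO Tu. Its level in CKO Tu was 0.214 of that in WT Tu (95% exact binomial interval 0.0527 to 0.65), with an exact permutation p of 0.1, below which 3 libraries against 3 cannot go. All 8 ER stress genes listed as a check, such as Sdf2l1 and Ddit3, rose in WT Tu against WT DMSO (limma adjusted p below 0.05). Over all genes tested 17.7% were higher there. Between CKO Tu and WT Tu 1 of the 8 rose (Xbp1), 2 fell (Ddit3 and Dnajb9) and 5 did not pass (median -0.18). That stands beside 38.3% of all genes tested called. All 9 hepatocyte markers listed passed the filter, with summed levels of 16441 to 18300 FPKM in WT DMSO, 16367 to 17911 in WT Tu and 14533 to 15459 in CKO Tu. Singly, 6 of the 9 rose, 2 fell and 1 did not pass in CKO Tu against WT Tu (median 0.36). In that comparison 18.7% of all genes tested were higher and 19.6% lower. The sum and most single markers thus went opposite ways there. With tunicamycin 0 rose, 3 fell and 6 did not pass (median -0.10), beside 33.6% of all genes tested called.

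At baseline, Rxra and Nr3c1 led and the receptors for foreign compounds and fatty acids were scarce. In WT DMSO, Rxra averaged 20.7 ± 0.980 FPKM (SD, n = 3), Nr3c1 12.2 ± 1.38 FPKM and Nr1h3 9.83 ± 1.12 FPKM. Then came Nr1h4 at 3.50 ± 0.468 FPKM, Nr1i2 at 2.34 ± 0.389 FPKM, Thrb at 1.61 ± 0.0210 FPKM and Ppara at 1.13 ± 0.0659 FPKM. Nr0b2 at 0.497 ± 0.155 FPKM and Nr1i3 at 0.268 ± 0.0199 FPKM were lowest. No 2 neighbours in that order overlapped between their 3 libraries. In CKO Tu the order began with Nr3c1 and Rxra, which overlapped, then Nr1h4 and Nr1h3, which overlapped, then Nr1i2, then Ppara and Thrb, which overlapped, then Nr0b2 and Nr1i3. By mean level over all libraries, Rxra lay at percentile 76.7 of the genes tested, Nr3c1 at 73.0, Nr1h3 at 57.1, Nr1h4 at 45.9, Nr1i2 at 29.8, Thrb at 17.9 and Ppara at 13.1.

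**Figure D1:**
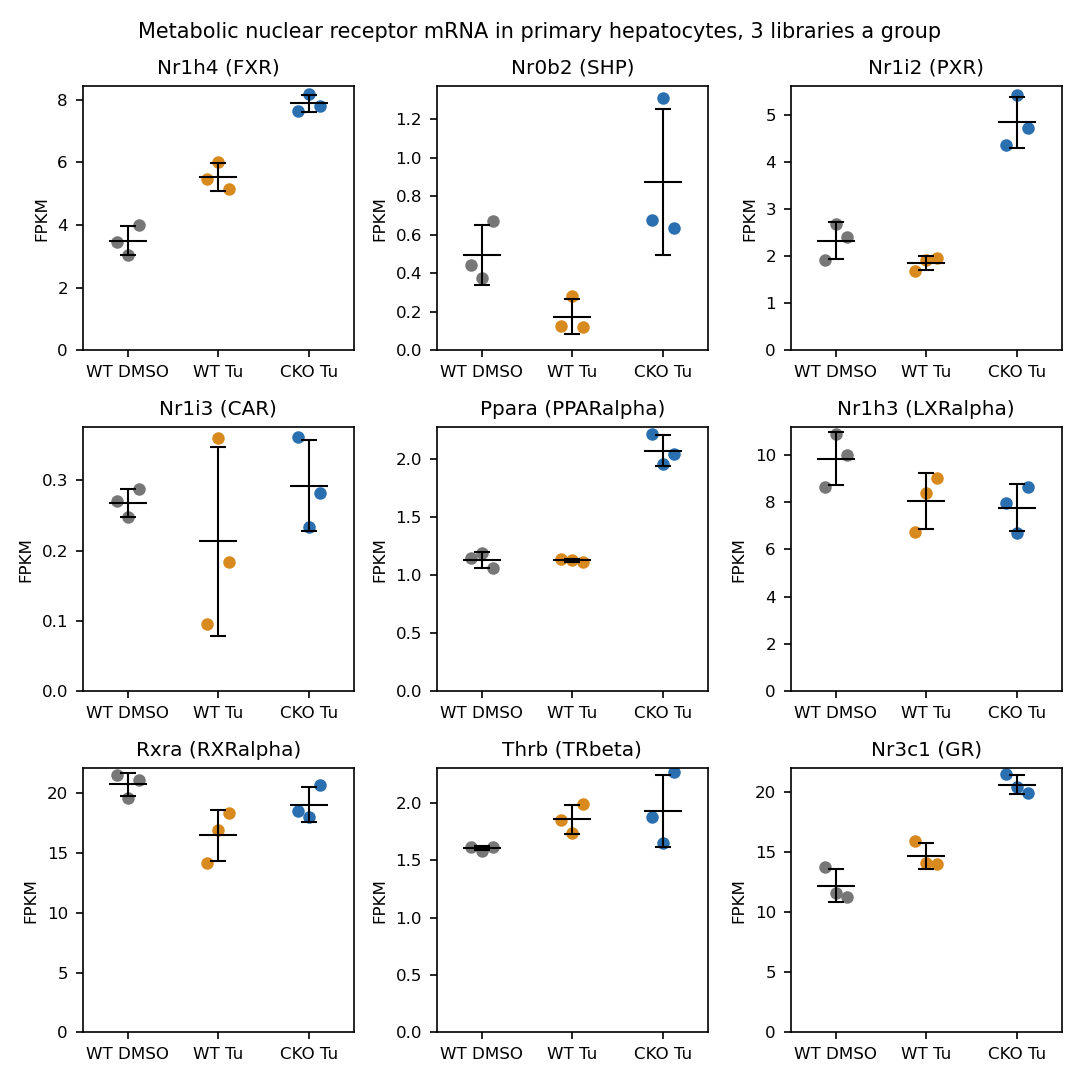
FPKM of the 9 receptors in each library (points), with the mean (long bar) and SD (short bars) of 3 libraries a group; each panel has its own axis from 0. Nr1h4 rose stepwise across the groups, from a mean of 3.50 to 5.54 and 7.88 FPKM, while Nr1i2 and Ppara were highest in all 3 CKO Tu libraries.

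With tunicamycin alone the receptors called in WT cells went in both directions. In WT Tu against WT DMSO, 2 of the 7 receptors tested rose (Nr1h4 and Nr3c1), 1 fell (Rxra) and 4 did not pass (limma on log2(FPKM + 1), adjusted p below 0.05). Over all genes tested, 33.6% were called in this comparison, 17.7% higher and 15.9% lower. Of the called genes 52.7% were thus higher, against 31.5% with scaling to total fragments, which shifted the median of all genes by -0.11. The median change was -0.0026 on the log2 scale over the 7 receptors and -0.0015 over all genes tested. Levels did not overlap between the groups for 5 of the 9 receptors (Nr1h4, Nr0b2, Rxra, Thrb and Nr3c1). Among genes tested this held for 4 of the 7 receptors and for 46.7% of all genes. Without WT Tu replicate 1, the receptors called were 2, with Nr3c1 lost. With WT DMSO replicate 3 left out only Nr1h4 was called.

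In CKO Tu against WT Tu, 4 of the 7 receptors rose, 0 fell and 3 did not pass. The 4 were Nr1i2, Ppara, Nr3c1 and Nr1h4. In this comparison 38.3% of all genes tested were called, 18.7% higher and 19.6% lower, and the groups did not overlap for 51.2% of them. The median change was 0.44 over the 7 receptors and -0.0021 over all genes tested. Levels did not overlap for 5 of the 9 receptors, the 4 above and Nr0b2, and so for 4 of the 7 tested. The 4 receptors called numbered 4 as well with any 1 library left out, WT Tu replicate 1 included. Both comparisons share the WT Tu libraries, so a high or low value there enters both.

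**Figure D2:**
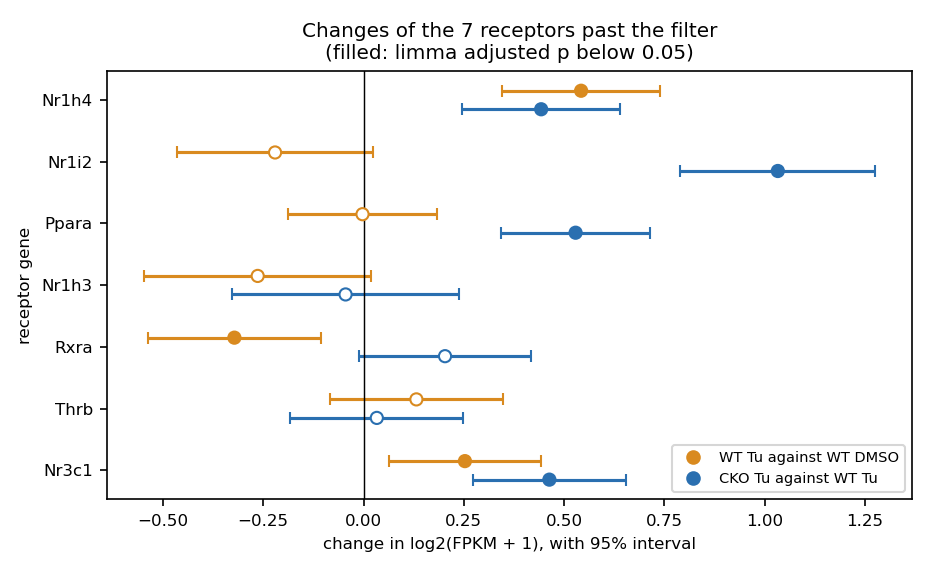
Change in log2(FPKM + 1) with its 95% interval from limma for the 7 receptors past the filter, tunicamycin against vehicle in WT cells (orange) and CKO Tu against WT Tu (blue); filled points have an adjusted p below 0.05. Nr1i2 shows the largest difference between CKO Tu and WT Tu, 1.03, and Nr1h4 and Nr3c1 are filled in both comparisons.

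The promoters of receptors that differed most are shown as the RefSeq sequence of the 250 bases before an annotated start site (GRCm38.p6, the assembly of mm10), since levels of the gene are what moved. Start sites were found for 8 of the 9 receptors, with 11 windows in all; Nr3c1 had no match. Capitals mark matches to a short set of motifs searched on both strands: the nuclear receptor half-site AGGTCA, the FXR inverted repeat (that half-site facing its reverse complement across 1 base), the LRH-1 core TCAAGG, the HNF4 site CAAAGTCCA, the HNF1 half-site GTTAAT, the ER stress response element (CCAAT followed after 9 bases by CCACG), the XBP1 and ATF6 site TGACGTGG, the glucocorticoid response element (AGAACA facing its reverse complement across 3 bases) and the TATA box TATAAA. The nuclear receptor half-site can overlap the LRH-1 core, as AGGTCAAGG holds both, and lies inside the FXR repeat.
Nr1h4, chr10:89506659-89506908, minus strand: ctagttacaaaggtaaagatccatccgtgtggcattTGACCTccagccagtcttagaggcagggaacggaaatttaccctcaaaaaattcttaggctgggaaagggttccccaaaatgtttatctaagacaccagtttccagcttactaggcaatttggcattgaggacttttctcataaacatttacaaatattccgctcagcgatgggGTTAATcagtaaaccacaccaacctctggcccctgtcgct
Nr0b2, chr4:133553126-133553375, plus strand: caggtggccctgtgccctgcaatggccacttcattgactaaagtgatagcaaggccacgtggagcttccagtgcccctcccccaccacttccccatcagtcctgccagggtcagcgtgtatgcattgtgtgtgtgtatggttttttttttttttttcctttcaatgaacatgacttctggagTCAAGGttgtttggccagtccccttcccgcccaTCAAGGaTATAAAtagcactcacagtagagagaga
Nr1i2, chr16:38294825-38295074, minus strand: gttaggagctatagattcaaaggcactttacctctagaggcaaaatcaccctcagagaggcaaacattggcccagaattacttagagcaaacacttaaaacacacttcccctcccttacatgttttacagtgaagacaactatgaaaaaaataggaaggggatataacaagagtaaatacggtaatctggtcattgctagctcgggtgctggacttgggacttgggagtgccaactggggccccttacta
Ppara, chr15:85735526-85735775, plus strand: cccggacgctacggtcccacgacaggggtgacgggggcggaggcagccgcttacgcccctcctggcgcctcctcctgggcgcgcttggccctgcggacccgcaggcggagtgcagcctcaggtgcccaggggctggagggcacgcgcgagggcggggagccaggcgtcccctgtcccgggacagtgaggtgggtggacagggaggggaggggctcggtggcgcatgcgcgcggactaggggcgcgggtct

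The 4 windows differ in base composition. The Ppara window held 76.4% G and C with 27 CpG pairs, against 44.4% and 5 CpG in Nr1h4, 44.0% and 2 CpG in Nr1i2, and 50% and 3 CpG in Nr0b2. The median over 32851 RefSeq windows was 52.4% (quartiles 45.2% and 61.2%). Counted back from the start site, with -1 the base before it, the Nr0b2 window held TCAAGG at -68 to -63 and at -35 to -30, and TATAAA at -28 to -23. The Nr1h4 window held AGGTCA on the opposite strand at -214 to -209 and GTTAAT at -40 to -35. The Nr1i2 and Ppara windows held 0 matches. The windows searched for motifs also reached past the start site, as at 89506609 to 89506908 for Nr1h4. Shares over all windows may therefore cover more bases than the sequences shown. Among all windows AGGTCA occurred in 14.02%, TCAAGG in 12.5%, TATAAA in 12.4% and GTTAAT in 6.43%. TGACGTGG occurred in 0.563%, CAAAGTCCA in 0.384%, the ER stress response element in 0.113%, the glucocorticoid response element in 0.00913% and the FXR inverted repeat in 0.00609%. A match is a run of letters, not a shown binding site. The RefSeq start of Nr1h4 lies 26927 bases inside the deposited gene model and that of Ppara 793 bases inside it, so a gene total can include transcripts from other starts.

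FXR, the bile acid receptor, rose in all 3 comparisons. Nr1h4 (ENSMUSG00000047638, chromosome 10, 89454234 to 89533585, minus strand, mm10) stood at 3.46, 3.06 and 3.99 FPKM for WT DMSO, 5.46, 6.01 and 5.15 for WT Tu, and 7.65, 8.18 and 7.81 for CKO Tu. The 3 groups did not overlap, with vehicle lowest and CKO Tu highest. WT Tu against WT DMSO it rose by 0.54 ± 0.09 on the log2 scale (SE; 95% interval 0.35 to 0.74; limma adjusted p = 0.0016), a ratio of mean FPKM of 1.58. CKO Tu against WT Tu it rose by a further 0.44 ± 0.09 (95% interval 0.25 to 0.64; limma adjusted p = 0.0041), a ratio of 1.42. Both calls held in all 16 alternatives run, among them another scaling, removal of the GC trend and each library left out. In CKO Tu the level was 2.25 times that in WT DMSO (limma adjusted p = 2.6e-05).

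SHP, the repressor that FXR induces, was at a few fragments a library. Nr0b2 (ENSMUSG00000037583, chromosome 4, 133553376 to 133556536, plus strand) gave 8, 7 and 12 fragments for WT DMSO, 2, 5 and 2 for WT Tu, and 12, 23 and 11 for CKO Tu. As FPKM these were 0.443, 0.375 and 0.672, then 0.124, 0.281 and 0.120, then 0.677, 1.31 and 0.638. All 3 WT Tu libraries lay below every other library. From group totals of 27, 9 and 46 fragments, the WT Tu level was 0.359 of that in WT DMSO (95% exact binomial interval 0.149 to 0.787; exact permutation p = 0.1). CKO Tu held 4.93 times the WT Tu level (95% interval 2.38 to 11.4; exact permutation p = 0.1), and 0.1 is the smallest p these groups can give. CKO Tu against WT DMSO the ratio was 1.77 (95% interval 1.08 to 2.96; exact permutation p = 0.2), and the libraries overlapped. These intervals cover counting error only. With no filter on low values limma gave Nr0b2 an adjusted p of 0.023 for CKO Tu against WT Tu and 0.22 for WT Tu against WT DMSO.

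Genes that FXR or SHP is known to regulate were called in both directions in both comparisons. Of 24 listed, 20 were tested. The list holds both induced and repressed genes, so its median change does not measure FXR or SHP activity. In WT Tu against WT DMSO 2 rose, 4 fell and 14 did not pass, with a median change of 0.0030, beside 33.6% of all genes tested called, and without WT Tu replicate 1 the counts were 0 and 2. Osgin1, an oxidative stress gene that bile acids induce, fell from 741 ± 80.7 to 357 ± 40.8 FPKM (SD over 3 libraries; limma adjusted p = 7.8e-05). Nr5a2, which encodes the receptor LRH-1 that SHP represses, fell from 2.89 ± 0.373 to 1.51 ± 0.0823 FPKM (limma adjusted p = 0.0011). CKO Tu against WT Tu, 9 rose, 5 fell and 6 did not pass, beside 38.3% of all genes tested called. The median change was 0.31, with 6 to 9 higher and 4 to 5 lower over the alternatives. Klb, the coreceptor for FGF19 family hormones, rose in both comparisons, by 0.45 ± 0.12 with tunicamycin (limma adjusted p = 0.022, lost without WT Tu replicate 1 or WT DMSO replicate 2 or 3) and by 0.52 ± 0.12 in CKO Tu (0.0098). The fibrinogen genes Fga and Fgg rose by 1.37 ± 0.16 and 1.03 ± 0.12 (SE), and Cyp8b1, the sterol 12α-hydroxylase that sets the type of bile acid made, rose by 0.97 ± 0.16 (limma adjusted p = 0.0018). Osgin1 fell further, by 1.32 on the log2 scale, to 142 ± 2.88 FPKM. Abcb11, the bile salt export pump and a textbook FXR target, was at 5.22 ± 0.270, 5.57 ± 0.499 and 5.94 ± 0.249 FPKM in the 3 groups (limma adjusted p = 0.45 for tunicamycin and 0.42 for CKO Tu). Cyp7a1, the rate-limiting enzyme of bile acid synthesis that SHP represses, was near its detection limit, with group totals of 2, 1 and 38 fragments.

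PXR differed most between CKO Tu and WT Tu among the 7 receptors tested. Nr1i2 (ENSMUSG00000022809, chromosome 16, 38248323 to 38294824, minus strand) stood at 1.92, 2.69 and 2.41 FPKM for WT DMSO, 1.68, 1.92 and 1.96 for WT Tu, and 4.38, 5.43 and 4.73 for CKO Tu. Every CKO Tu library was above every WT library, and the WT groups overlapped. The difference from WT Tu was 1.03 ± 0.11 on the log2 scale (SE; 95% interval 0.79 to 1.28; limma adjusted p = 0.00017), 2.62 times the WT Tu mean, and it passed in all 15 alternatives that test the gene. In WT Tu against WT DMSO it changed by -0.22 ± 0.11, which did not pass (limma adjusted p = 0.15), and passed only with scaling to total fragments (0.049).

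CAR, the companion sensor of foreign compounds, was the lowest of the 9 in WT DMSO and CKO Tu and overlapped Nr0b2 in WT Tu. Nr1i3 (ENSMUSG00000005677, chromosome 1, 171213970 to 171220701, plus strand) gave 19, 18 and 20 fragments for WT DMSO, 6, 25 and 12 for WT Tu, and 25, 16 and 19 for CKO Tu. The WT Tu libraries held both the lowest and the joint highest of these counts, and the groups overlapped. The WT Tu level was 0.813 of that in WT DMSO (95% exact binomial interval 0.534 to 1.23; exact permutation p = 0.6), and CKO Tu 1.35 times the WT Tu level (95% interval 0.894 to 2.04; exact permutation p = 0.4). Differences inside these intervals were not detectable at this depth. The gene overlaps Tomm40l on the other strand, which had 199, 109 and 119 fragments in the 3 groups, and without a stated strand setting reads of the 2 genes cannot be told apart.

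Textbook CAR and PXR targets fell broadly in CKO Tu, in the group where Nr1i2 was highest. Of 38 listed, 36 were tested. In CKO Tu against WT Tu 4 rose, 22 fell and 10 did not pass, beside 18.7% higher and 19.6% lower over all genes tested. The median change was -0.72 against -0.0021 over all genes tested. Over the alternatives run, 19 to 23 fell and 4 rose. Cyp2b10, the classical CAR target, fell from 31.0 ± 0.836 to 2.29 ± 0.324 FPKM (SD over 3 libraries; limma adjusted p = 2.1e-08), and Cyp2c37 from 30.5 ± 0.392 to 4.27 ± 0.808 FPKM. Cyp3a11, the main PXR target in mouse liver, fell from 42.6 ± 2.64 to 12.02 ± 0.582 FPKM (limma adjusted p = 2.7e-06). Cyp2b9 and the sulfotransferase gene Sult2a1 had 1469 and 343 fragments in WT Tu and 0 in CKO Tu, at least 508-fold and 119-fold lower against a floor of 3 fragments over the group. Cyp2b13 and Cyp3a41a also had 0 fragments in CKO Tu, against 194 and 108. Cyp2b9, Cyp2b13, Cyp3a41a and Sult2a1 are known to be more abundant in female than in male mouse liver, and the CKO Tu libraries are those without Xist. Gadd45b, a stress gene that CAR induces, rose by 1.31 ± 0.11 (limma adjusted p = 5.6e-05).

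With tunicamycin alone 4 genes of this list rose, 7 fell and 25 did not pass in WT Tu against WT DMSO, with a median change of 0.06, beside 33.6% of all genes tested called. Cyp2b10 rose by 0.56 ± 0.08 (SE; limma adjusted p = 0.00061) and Cyp3a11 by 0.31 ± 0.09 (limma adjusted p = 0.024), the second call passing in 8 of 16 alternatives and lost without WT DMSO replicate 1 or WT Tu replicate 1 or 3. Gadd45b, Cyp1a2 and the bile acid exporter gene Abcc3 fell by 0.94, 0.87 and 0.67 on the log2 scale.

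PPARα mRNA was flat with tunicamycin and higher in CKO Tu. Ppara (ENSMUSG00000022383, chromosome 15, 85734983 to 85802819, plus strand) stood at 1.14, 1.19 and 1.06 FPKM for WT DMSO, 1.14, 1.13 and 1.11 for WT Tu, and 2.21, 1.95 and 2.04 for CKO Tu. The WT groups overlapped, and all 3 CKO Tu libraries lay well above them. The change with tunicamycin had a 95% interval of -0.19 to 0.18 on the log2 scale (limma adjusted p = 0.98). CKO Tu exceeded WT Tu by 0.53 ± 0.08 (SE; 95% interval 0.34 to 0.71; limma adjusted p = 0.0012), a ratio of mean FPKM of 1.84, and it passed in all 15 alternatives that test the gene.

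On a list of PPARα targets, most of them genes of fatty acid oxidation and handling, more fell than rose in CKO Tu. Of 40 listed, 38 were tested. In CKO Tu against WT Tu 8 rose, 19 fell and 11 did not pass, beside 18.7% higher and 19.6% lower over all genes tested. The median change of the list was -0.28, and 14 to 21 fell over the alternatives. The fatty acid hydroxylases Cyp4a14 and Cyp4a10 fell from 64.1 ± 3.14 to 11.6 ± 1.93 FPKM and from 37.3 ± 2.87 to 9.65 ± 0.545 FPKM (SD over 3 libraries; limma adjusted p = 2.3e-06 and 6.3e-07). Fabp1, the fatty acid carrier, rose by 1.63 ± 0.39 (SE; limma adjusted p = 0.011), and by 1.06 without WT Tu replicate 1. With tunicamycin alone 8 rose, 5 fell and 25 did not pass (median 0.0087), beside 33.6% of all genes tested called. Pdk4, a kinase that spares glucose, rose from 9.98 ± 1.54 to 23.0 ± 1.53 FPKM and Acot2, a thioesterase, from 31.2 ± 0.801 to 50.2 ± 0.751 FPKM. Cpt1a, the gate of mitochondrial oxidation, rose by 0.49 ± 0.08 (limma adjusted p = 0.0016). Fgf21, a hormone gene, fell by 0.73 and Angptl4, an inhibitor of lipoprotein lipase, by 0.52.

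LXRα did not pass in any of the 3 comparisons. Nr1h3 (ENSMUSG00000002108, chromosome 2, 91184061 to 91202834, minus strand) stood at 8.63, 10.9 and 9.9999 FPKM for WT DMSO, 6.73, 8.36 and 9.02 for WT Tu, and 7.95, 6.67 and 8.63 for CKO Tu. The 3 groups overlapped. Its change was -0.26 ± 0.12 with tunicamycin (SE; limma adjusted p = 0.14), and it passed with scaling to total fragments (0.045). CKO Tu against WT Tu it was -0.04 ± 0.12 (95% interval -0.33 to 0.24; limma adjusted p = 0.81). With FXR rising and LXRα not, the ratio of Nr1h4 to Nr1h3 FPKM went from 0.360 ± 0.0683 in WT DMSO to 0.700 ± 0.121 in WT Tu and 1.03 ± 0.172 in CKO Tu (SD, n = 3). Its ranges, 0.282 to 0.401, 0.570 to 0.811 and 0.904 to 1.23, did not overlap.

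Of 20 listed LXR targets, 14 were tested. In WT Tu against WT DMSO 0 rose, 4 fell and 10 did not pass (median -0.18), beside 33.6% of all genes tested called. The 4 were Mlxipl, the gene of the glucose sensor ChREBP, Apoc1, and the lipid synthesis genes Acaca and Scd1, which fell by 0.74, 0.44, 0.43 and 0.30 on the log2 scale; 3 to 6 fell over the alternatives, and Apoc1 was lost without WT DMSO replicate 3. From WT Tu to CKO Tu 8 rose, 2 fell and 4 did not pass (median 0.31), beside 38.3% of all genes tested called. Mlxipl went from 10.2 ± 1.41 to 24.5 ± 2.09 FPKM (SD over 3 libraries; limma adjusted p = 0.00027). The sterol exporters Abcg5 and Abca1 rose by 0.70 ± 0.10 and 0.68 ± 0.10 (SE). Srebf1, the gene of the lipogenic factor SREBP-1, rose by 0.32 ± 0.10 (limma adjusted p = 0.041), which passed in 8 of 16 alternatives and was lost without any 1 library other than WT Tu replicate 3. Pltp, a phospholipid transfer protein, and the desaturase Scd1 fell by 0.74 and 0.45.

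RXRα, the common partner, fell with tunicamycin. Rxra (ENSMUSG00000015846, chromosome 2, 27676440 to 27762957, plus strand) stood at 21.5, 19.6 and 21.1 FPKM for WT DMSO, 14.1, 16.9 and 18.3 for WT Tu, and 18.5, 17.95 and 20.6 for CKO Tu. The WT groups did not overlap, WT Tu replicate 1 was lowest, and CKO Tu overlapped both. The change with tunicamycin was -0.32 ± 0.09 on the log2 scale (SE; 95% interval -0.54 to -0.11; limma adjusted p = 0.029), a ratio of 0.794. It was -0.22 (0.048) without WT Tu replicate 1. The call was lost with no filter (0.07), with only the groups compared in the fit (0.054), with the GC trend removed (0.097), and without WT DMSO replicate 1 or 3 (0.083 each). CKO Tu against WT Tu the change was 0.20 ± 0.09 (95% interval -0.01 to 0.42; limma adjusted p = 0.12).

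RXRα mRNA was lower relative to the summed mRNA of 6 of its dimer partners in both tunicamycin groups than in WT DMSO. The summed FPKM of the 6 partners Nr1h4, Nr1i2, Nr1i3, Ppara, Nr1h3 and Thrb was 18.7 ± 1.42 in WT DMSO, 18.6 ± 1.45 in WT Tu and 24.8 ± 0.872 in CKO Tu (SD, n = 3). Divided by Rxra in the same library, this was 0.904 ± 0.104, 1.14 ± 0.0718 and 1.30 ± 0.0503. The libraries ranged from 0.794 to 1.00, from 1.06 to 1.2004 and from 1.25 to 1.34, without overlap. These ratios describe mRNA and were not tested. They leave out other partners, such as LXRβ (Nr1h2). In CKO Tu against WT DMSO Rxra itself did not pass (limma adjusted p = 0.33). The other RXR genes differed: Rxrb fell from 16.1 ± 1.57 to 9.62 ± 1.80 FPKM with tunicamycin (limma adjusted p = 0.0027) and was at 20.8 ± 0.765 FPKM in CKO Tu (against WT Tu, 0.00029). Rxrg was at 1.23 ± 0.243, 1.16 ± 0.0347 and 0.890 ± 0.378 FPKM and did not pass in either comparison (limma adjusted p = 0.86 and 0.31).

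TRβ, the main liver receptor for thyroid hormone, did not pass in either comparison. Thrb (ENSMUSG00000021779, chromosome 14, 17660261 to 18038090, plus strand) stood at 1.62, 1.58 and 1.62 FPKM for WT DMSO, 1.85, 1.73 and 1.99 for WT Tu, and 1.88, 1.65 and 2.27 for CKO Tu. All WT Tu libraries were above WT DMSO, and CKO Tu overlapped WT Tu. The change with tunicamycin was 0.13 ± 0.09 (SE; limma adjusted p = 0.32), and CKO Tu against WT Tu it was 0.03 ± 0.09 (0.81). The gene overlaps the antisense RNA Gm48321, which had 14, 27 and 1 fragments in the 3 groups.

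Of 16 thyroid hormone targets, 14 were tested. With tunicamycin 3 rose, 4 fell and 7 did not pass (median 0.0072), beside 33.6% of all genes tested called. Klf9, a transcription factor that glucocorticoids also induce, rose from 17.3 ± 0.926 to 26.3 ± 2.64 FPKM (SD over 3 libraries; limma adjusted p = 0.00053). Between CKO Tu and WT Tu 6 rose, 3 fell and 5 did not pass (median 0.14), beside 38.3% of all genes tested called. Thrsp, a lipogenic gene, went from 4.93 ± 0.501 to 18.7 ± 1.25 FPKM (limma adjusted p = 1.1e-06). G6pc, which releases glucose from its phosphate, went from 1.30 ± 0.169 to 14.7 ± 1.48 FPKM (2.2e-07), and Klf9 reached 47.9 ± 0.869 FPKM. Dio1, the thyroid hormone deiodinase, was at 6.30 ± 1.67, 7.44 ± 0.781 and 5.96 ± 0.487 FPKM and did not pass (0.28 and 0.18). Of these 16 genes, 6 also stand on another of the target lists, so the lists are not separate evidence.

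GR, the glucocorticoid receptor, was higher in CKO Tu than in either WT group. Nr3c1 (ENSMUSG00000024431, chromosome 18, 39410545 to 39491301, minus strand) stood at 13.8, 11.6 and 11.2 FPKM for WT DMSO, 15.98, 14.14 and 14.04 for WT Tu, and 21.5, 20.5 and 19.99 for CKO Tu. The 3 groups did not overlap, though the highest WT DMSO library came close to the lowest WT Tu library. CKO Tu exceeded WT Tu by 0.46 ± 0.08 on the log2 scale (SE; 95% interval 0.27 to 0.65; limma adjusted p = 0.0028), a ratio of 1.40, and the call held in all 16 alternatives. The rise with tunicamycin was 0.25 ± 0.08 (95% interval 0.06 to 0.44; limma adjusted p = 0.046), a ratio of 1.205. That call passed in 5 of 16 alternatives, with adjusted p from 0.011 to 0.27. It was lost with scaling to total fragments (0.25), with the GC trend removed (0.27) and without any 1 library other than WT DMSO replicate 1.

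Many glucocorticoid target genes were higher in CKO Tu. All 24 listed were tested, and 15 rose, 2 fell and 7 did not pass in CKO Tu against WT Tu. Over all genes tested 18.7% were higher and 19.6% lower in this comparison. The median change of the list was 0.79, and 12 to 16 rose over the alternatives. G6pc rose by 2.77 ± 0.10 (SE). Igfbp1, a binding protein for insulin-like growth factors, rose from 23.8 ± 4.85 to 145 ± 14.5 FPKM, and Tat, the tyrosine aminotransferase long used to follow glucocorticoid action, from 19.5 ± 3.08 to 109 ± 14.2 FPKM (SD over 3 libraries; limma adjusted p = 3.6e-06 and 7.8e-06). Pck1, the gluconeogenic enzyme, went from 5.60 ± 0.842 to 18.4 ± 3.91 FPKM (0.0012). Not every classical target shared this: Fkbp5, which encodes a GR cochaperone, was at 4.42 ± 0.309 and 3.66 ± 0.101 FPKM (limma adjusted p = 0.051), and Ampd3, an AMP deaminase, fell by 1.70. Tsc22d3, the gene of the anti-inflammatory protein GILZ, rose by 0.26 ± 0.09 (0.039), which passed in 7 of 15 alternatives and was lost without any 1 library other than WT Tu replicate 2. With tunicamycin alone 7 rose, 8 fell and 9 did not pass (median -0.026), beside 33.6% of all genes tested called. Per1, a clock gene, and Nfil3 rose by 0.90 ± 0.20 and 0.73 ± 0.07, while Ddit4 and Errfi1 fell by 0.98 and 0.76.

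**Figure D3:**
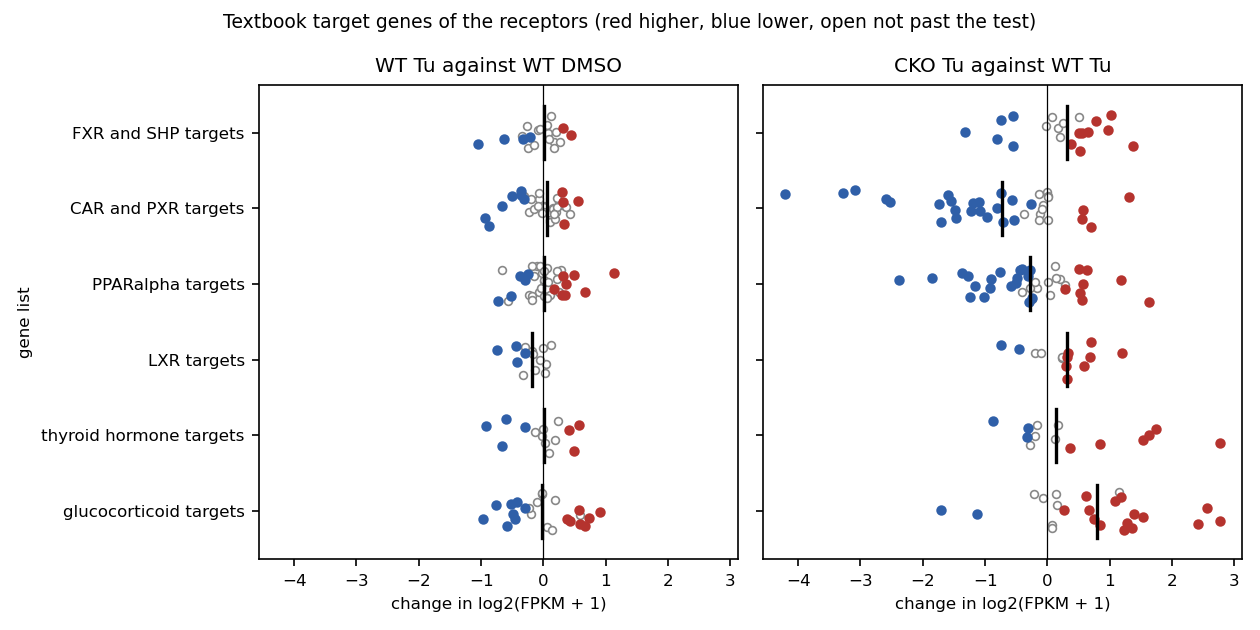
Change in log2(FPKM + 1) of each tested gene on the 6 target lists, WT Tu against WT DMSO (left) and CKO Tu against WT Tu (right); red points are higher and blue points lower at a limma adjusted p below 0.05, open points did not pass, and the thick bar is the list's median. The CAR and PXR list has its median at -0.72 and the glucocorticoid list at 0.79 in the right panel, and every list has its median between -0.18 and 0.06 in the left panel.

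CKO Tu against WT DMSO, which joins both differences, gave 4 receptors higher, 0 lower and 3 not passed, beside 49.5% of all genes tested called (25.3% higher, 24.2% lower). Levels did not overlap for 5 of the 7 receptors tested, beside 63.0% of all genes tested. Nr1h4 rose by 0.98 ± 0.09 (SE; limma adjusted p = 2.6e-05), Nr1i2 by 0.81 ± 0.11 (0.00028), Nr3c1 by 0.72 ± 0.08 (0.00014) and Ppara by 0.53 ± 0.08 (0.00071). Nr1h3 changed by -0.31 ± 0.12 and did not pass (limma adjusted p = 0.068). It passed in 5 of 16 alternatives: scaling to total fragments (0.037) or to the upper quartile (0.030), voom (0.044), only the groups compared (0.046) and without WT DMSO replicate 1 (0.044). For Rxra and Thrb the limma adjusted p was 0.33 and 0.18.

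Among other members of the nuclear receptor family, more rose than fell in CKO Tu against WT Tu. Of 40 others listed, 21 were tested. Between CKO Tu and WT Tu 9 rose, 2 fell and 10 did not pass, with a median change of 0.34, beside 18.7% higher and 19.6% lower over all genes tested. Hnf4a, which encodes a master regulator of hepatocyte identity, fell from 11.2 ± 0.981 to 6.43 ± 0.779 FPKM with tunicamycin (SD over 3 libraries; limma adjusted p = 0.00052) and stood at 19.8 ± 1.25 FPKM in CKO Tu (1e-05 against WT Tu). Nr1h2, the gene of LXRβ, rose from 23.6 ± 3.998 to 35.5 ± 1.18 FPKM (0.0029), so it exceeded Nr1h3 in every group. The clock receptor gene Nr1d2 rose from 18.4 ± 0.885 to 29.2 ± 0.413 FPKM (8e-05), and Nr1d1 was at 15.4 ± 4.13 and 22.6 ± 4.04 FPKM (0.17). Esrra rose by 0.67 ± 0.17 (0.016), a call lost without CKO Tu replicate 2 or 3, and by 0.44 without WT Tu replicate 1. Pparg, the fat-storage receptor, fell from 5.73 ± 0.433 to 1.12 ± 0.0880 FPKM (limma adjusted p = 9.5e-06), so Pparg exceeded Ppara in both WT groups and not in CKO Tu. With tunicamycin 3 rose, 6 fell and 12 did not pass (median -0.15), beside 33.6% of all genes tested called. Over the alternatives 4 to 9 were lower. Besides Hnf4a, Rxrb and Nr5a2, Nr2f6 and Rarg fell by 0.92 and 0.64.

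**Figure D4:**
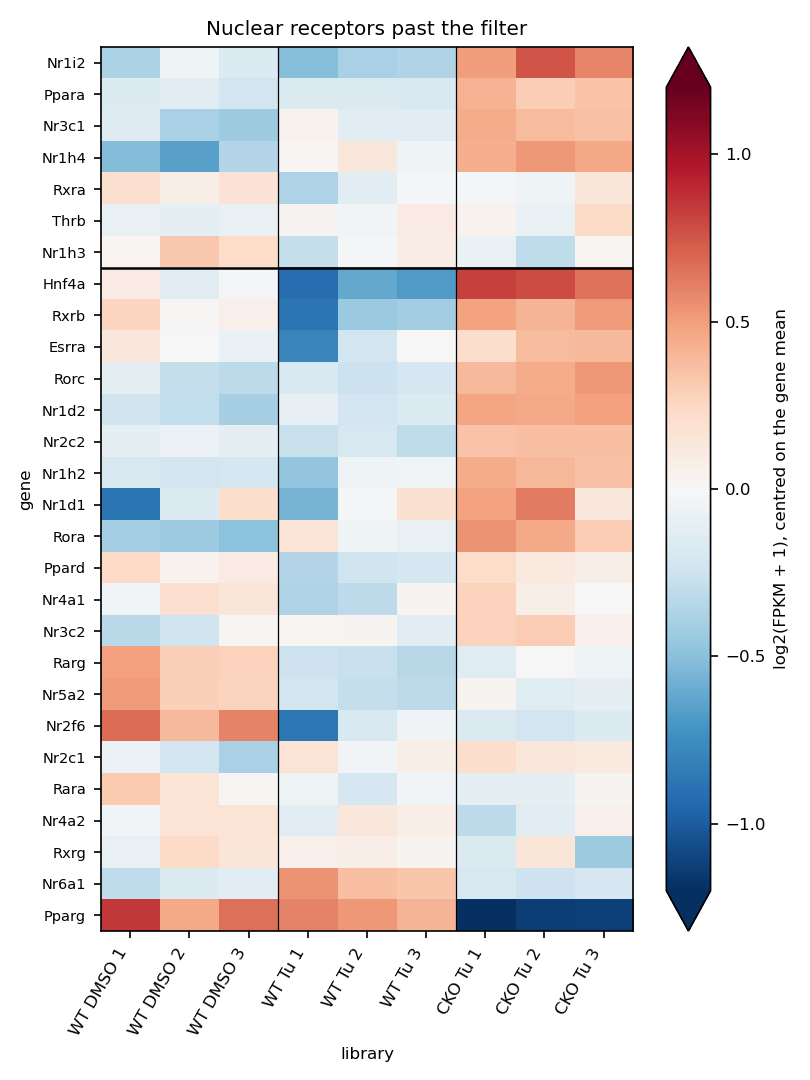
log2(FPKM + 1) of nuclear receptors past the filter, each centred on its own mean over the 9 libraries; the 7 receptors chosen here are above the black line and the 21 others below it. Red cells in the CKO Tu columns mark Nr1i2, Ppara, Nr3c1, Nr1h4 and, below, Hnf4a and Rxrb, while Pparg is blue there.

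Among receptor cofactors, only the coactivators in CKO Tu against WT Tu were called more often than all genes tested. Shares over all genes tested were 33.6% with tunicamycin and 38.3% in CKO Tu against WT Tu. Of 16 coactivators, which open chromatin at a bound receptor, 13 were tested, and 8 rose, 2 fell and 3 did not pass in CKO Tu against WT Tu (median 0.20). Ncoa4 rose by 0.74 ± 0.08, Ncoa1 by 0.42 ± 0.08 and the acetyltransferase gene Crebbp by 0.38 ± 0.08 (SE). Ppargc1a, the gene of PGC-1α, was below the filter with group totals of 120, 299 and 284 fragments. Of 14 corepressors, 12 were tested; 3 rose, among them Sin3a by 0.48 (lost without CKO Tu replicate 1) and Gps2 by 0.41, and 9 did not pass (median 0.06). With tunicamycin 2 coactivators rose and 2 fell (median -0.056), and 1 corepressor rose and 2 fell (median -0.023), among them Kmt2d (-0.54 ± 0.07) and Nrip1, the gene of RIP140 (0.49 ± 0.07).

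Cytosolic proteins of receptor complexes, among them the chaperones that hold GR ready for its ligand, went the other way. Of 12 tested, 0 rose, 8 fell and 4 did not pass in CKO Tu against WT Tu (median -0.25). In that comparison 19.6% of all genes tested were lower, and 5 to 9 of the 12 were lower over the alternatives. Hsp90ab1 fell from 737 ± 7.79 to 534 ± 12.03 FPKM and Hspa8 from 584 ± 26.2 to 442 ± 14.7 FPKM (SD over 3 libraries; limma adjusted p = 0.00018 and 0.00053). With tunicamycin 2 rose, 3 fell and 7 did not pass (median -0.17), beside 33.6% of all genes tested called. Fkbp4, a cochaperone that aids GR transport, fell by 0.51 on the log2 scale with tunicamycin.

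Enzymes and carriers that set ligand supply included some of the widest changes. Of 21 listed, 17 were tested. H6pd, which feeds the enzyme that reactivates glucocorticoids in the ER, fell from 33.9 ± 6.49 to 7.87 ± 0.905 FPKM with tunicamycin (limma adjusted p = 8.3e-06) and stood at 21.2 ± 0.221 FPKM in CKO Tu (9.3e-05 against WT Tu). Hsd11b1, that reactivating enzyme, fell from 60.3 ± 2.27 to 45.2 ± 0.494 FPKM in CKO Tu (limma adjusted p = 0.00038). Cyp7b1, an oxysterol hydroxylase known to be higher in male than in female mouse liver, went from 1.14 ± 0.221 to 20.1 ± 1.44 FPKM (limma adjusted p = 4.6e-08). In CKO Tu against WT Tu 8 rose, 4 fell and 5 did not pass (median 0.24), beside 38.3% of all genes tested called. With tunicamycin 1 rose, 5 fell and 11 did not pass (median 0.028), beside 33.6% of all genes tested called. The thyroid hormone transporter Slc16a10 rose in both, by 0.41 ± 0.05 and 0.37 ± 0.05.

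Liver transcription factors that act upstream of the receptor genes included several that fell with tunicamycin. Of 14 listed, 12 were tested. In WT Tu against WT DMSO 1 rose, 6 fell and 5 did not pass (median -0.28), beside 33.6% of all genes tested called. Over the alternatives 2 to 7 fell. Cebpa fell from 61.7 ± 15.5 to 27.2 ± 5.44 FPKM and Foxa2 from 4.52 ± 0.866 to 2.32 ± 0.0570 FPKM (SD over 3 libraries; limma adjusted p = 0.0016 and 0.0026). In CKO Tu against WT Tu 6 rose, 0 fell and 6 did not pass (median 0.29), beside 38.3% of all genes tested called. Cebpa was at 49.8 ± 2.65 FPKM in CKO Tu (limma adjusted p = 0.0059) and Prox1 was higher by 0.60 ± 0.11 (0.0028).

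Markers of other liver cells moved between the groups as well. The 9 endothelial markers summed to 11.2 to 11.8 FPKM in WT DMSO, 4.76 to 5.90 in WT Tu and 3.49 to 4.04 in CKO Tu. All 4 tested fell with tunicamycin, beside 15.9% lower over all genes tested. The 6 cholangiocyte markers summed to 22.7 to 25.9, 22.8 to 24.3 and 34.3 to 38.3 FPKM. The 9 Kupffer cell markers summed to 75.2 to 92.7, 96.9 to 115 and 92.7 to 107 FPKM, almost all of it Cd68, with Vsig4 at 0 throughout. Of the 2 Kupffer cell markers tested, 1 rose (Cd68) and 1 fell (Lyz2) with tunicamycin, beside 33.6% of all genes tested called. In CKO Tu against WT Tu these 2 did not pass. Kupffer cell markers with any fragments numbered 8, 8 and 5 in the 3 groups. The 8 stellate markers summed to 5.42 to 6.63, 4.97 to 5.76 and 6.49 to 7.29 FPKM, and the 8 lymphocyte and neutrophil markers to 1.42 to 1.78, 4.87 to 6.43 and 3.02 to 4.58 FPKM. Of the lymphocyte and neutrophil markers only Camp was tested, and it rose by 1.83 on the log2 scale with tunicamycin. Those with any fragments numbered 8, 6 and 4 in the 3 groups. Their part in the receptor results was not tested, and in bulk RNA fewer cells of a type and less RNA per cell cannot be told apart.

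Among all genes tested, the genes most like each receptor were found by Pearson correlation of log2(FPKM + 1) over the 9 libraries, as a description that the group differences dominate. Rbm10 (0.987) and Cdv3 (0.986) were closest to Nr1h4, Cpe (0.989) and H2-Ab1 (0.988) to Nr1i2, and Stard4 (0.992) and Elf1 (0.992) to Nr3c1. For Ppara they were Ugt2b1 and Hsd3b5 (0.996 each); Hsd3b5, a steroid dehydrogenase of male mouse liver, was listed at 0 in all WT libraries and averaged 4.90 FPKM in CKO Tu. Higd2a (0.977) and Reep6 (0.976) were closest to Rxra, Rbpms2 (0.976) and Gpaa1 (0.942) to Nr1h3, and Zfp235 (0.901) and Slc17a8 (0.873) to Thrb. Among the receptors themselves, Nr1i2 with Ppara (0.928), Ppara with Nr3c1 (0.904) and Nr1h4 with Nr3c1 (0.903) were the closest pairs over the 9 libraries, and Nr1h3 with Nr3c1 (-0.711) the farthest apart.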

How the data were processed

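RNA-seq of total RNA from 9 primary hepatocyte cultures, 3 in each of 3 groups, was measured. The authors deposited FPKM values, 54532 genes in 1 table. HISAT2 2.2.1, featureCounts 1.5.0-p3 and mm10 are named, per the submitters' processing notes; which annotation release and strand setting they used is not given in the sources used here. No count table entered any test. FPKM times gene length moved in whole steps, within 0.001 fragments, in 100% of the low nonzero values checked, 15555 to 16062 a library. This gave back the fragments per gene, where higher values were rounded to the same steps without that check. The library size implied by the FPKM was 0.948 to 1.07 times the sum of fragments.

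The 11858 genes that reached 1 FPKM in 3 or more libraries were tested as log2(FPKM + 1) with limma 3.58.1 in R 4.3.3, all 9 libraries, group means and an intensity trend. Tests were two-sided and adjusted by Benjamini-Hochberg over all genes tested in each of 3 comparisons, at a threshold of 0.05. A log2 change carries the pseudocount of 1 and understates the change of low genes. Receptors under the filter were compared by exact two-sided permutation tests of FPKM, with ratios of recovered fragments and 95% exact binomial (Clopper-Pearson) intervals, computed in Python 3.11.15 with scipy 1.17.1. A fold against 0 fragments uses a floor of 3 over the group.

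The 9 receptors and the gene lists were chosen with earlier results of these data known. From each list, up to 4 called members with the largest change per comparison were named, and the 4 most abundant other nuclear receptors. For each receptor tested, the 2 genes with the highest correlation were named, leaving out predicted genes. Abcb11, Cyp7a1, Cyp2b13, Cyp3a41a, Cyp3a11, Cpt1a, Srebf1, Rxrg, Dio1, Fkbp5, Tsc22d3, Ppargc1a and Hsd11b1 were named after their values were seen. A few genes that the rule names are not reported here.

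Alternatives were a pseudocount of 0.1, no filter, a filter at FPKM of 5, scaling to total fragments or to the upper quartile, only the groups compared, a replicate block, no intensity trend, voom on recovered fragments, subtraction of a lowess fit of the change on GC content (span 0.3; GENCODE M21 transcripts, 99.9% of tested genes), and each library left out in turn. Promoters are from RefSeq. The steps were tested on simulated data with 64 or 65 changed genes of each size and the same added spread for every gene, unlike these data. There limma called 7.81% of genes changed by 0.5 on the log2 scale. It called 76.9% of those changed by 1, 98.5% of those changed by 2 and 0.123% of unchanged genes. The simulated setting differs, so these shares do not give the power in these data.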

Additional observations from a re-analysis of the deposited data

How the results depend on the processing

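Over the alternatives run, 1976 gene values kept their direction and side of the threshold, 112 lost a call, 7 gained one and 8 turned direction, none of those 8 called. In WT Tu against WT DMSO 3 receptors were called, but only Nr1h4 (1) with no filter, with only the 2 groups compared and with the GC trend removed, and 1 to 2 with each library left out; changes there followed GC content (Spearman -0.344 across genes, which are not independent replicates). In both comparisons of CKO Tu, 4 receptors were called, but 2 with the filter at FPKM of 5, where Nr1i2 and Ppara are not tested; leaving out each library gave 4 to 4 against WT Tu and 4 to 5 against WT DMSO. Ppara with tunicamycin changed by 0.0285 on the log2 scale with the GC trend removed, and by -0.0273 (without WT DMSO replicate 3) to 0.0167 with each library left out. In CKO Tu against WT Tu, Nr1h3 changed by 0.0058 with scaling to total fragments, and by -0.153 (without WT Tu replicate 1) to 0.0471 (without CKO Tu replicate 2) with each library left out; Thrb ran from -0.0481 (without CKO Tu replicate 3) to 0.1041 (without CKO Tu replicate 2). For these the cause was not tested. Genes called without 1 library ranged from 2973 to 3815, 3326 to 4833 and 4862 to 5380 in the 3 comparisons.

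Scaling to total fragments moved the median of all genes with tunicamycin by -0.11 on the log2 scale. Of the genes called, 31.5% were then higher, against 52.7% as deposited and 42.3% with upper-quartile scaling. For CKO Tu against WT Tu these were 57.9%, 48.8% and 45.5%, and against WT DMSO 42.6%, 51.1% and 42.4%. Replicate numbers showed no sign of pairing: the 9 correlations between same-numbered libraries of different groups ran from -0.097 to 0.021. The 18 between libraries of different number ran from -0.061 to 0.104. With 3 libraries a group these values cannot show that the cultures were unpaired. With the replicate number as a block, 3696, 4248 and 5683 genes were called and the receptors called were 3, 4 and 4. Depth limits Nr0b2, Nr1i3 and Cyp7a1, which had few fragments per library, and 3 libraries a group limit all tests.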
